A study of Mus musculus with 6 samples.

Results

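The genes described here are the 8 that carry the hepatic urea cycle: the 5 enzymes of the cycle (Cps1, Otc, Ass1, Asl and Arg1), the enzyme that makes the activator of its first step (Nags) and the mitochondrial carriers that bring ornithine and aspartate to it (Slc25a15 and Slc25a13). They were picked by gene symbol, and all 8 were found among the 23420 genes of the deposited table of RPKM, a unit that scales reads to the length of the gene and the size of the library. RNA had been sequenced from the livers of 6 C57Bl/6 mice. All 6 had eaten a low-iron diet for 3 weeks. Of these mice, 3 then received 2 intraperitoneal doses of RGFP966, an inhibitor of the histone deacetylase HDAC3, at 20 mg/kg per dose, and 3 received vehicle. The livers sequenced were those whose RNA was of the highest quality in each group. Per the paper the mice were male and began the diet at 4 weeks of age, and their livers were taken 2 h after the second dose. The table heads its columns Sample1 to Sample6, and no source used here ties those names to a treatment. Every value below is therefore given for a column, and the spread over the 6 columns holds any effect of the inhibitor as well as differences between mice and libraries.

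The urea cycle turns ammonia, released when amino acids are broken down, into urea for excretion. It begins inside the mitochondrion, where carbamoyl phosphate is made and joined to ornithine, and it ends in the cytosol, where arginine is split into urea and ornithine. In mammals the complete cycle runs in hepatocytes, most strongly in those around the portal vein, and inherited loss of any of its enzymes leads to a build-up of ammonia. The mRNAs of its enzymes are among the common transcripts of the liver.

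Recovered from the RPKM values, the reads counted per column ran from 27654937 to 36850744. Of the 6 hepatocyte markers, 5 were at 6476 RPKM or more in every column (Alb at 10399 to 14439), and Apob was at 18.4 to 27.3. By contrast, the 3 intestinal markers, checked because Cps1, Otc and Nags are also made in intestine, summed to 0.268 to 1.59 RPKM with Cdx2 at 0 in every column. Markers of other cells summed to 261.9 to 696.4 RPKM for erythroid cells, 87.3 to 141.9 for Kupffer cells and 69.5 to 110.5 for stellate cells. The sums were 48.0 to 68.6 for cholangiocytes, 16.4 to 40.3 for endothelium and 0.906 to 1.8 for lymphocytes. Single genes made up most of 3 sums: a beta-globin gene listed as Beta-s (216.2 to 632.9), Dcn for stellate cells (66.5 to 107.4) and Spp1 for cholangiocytes (44.1 to 65.7). No lymphocyte marker reached a median of 1 RPKM. No pair of columns was a duplicate: the smallest chi-square per degree of freedom between any of the 15 pairs was 41. It was 41 to 65.1 for pairs within Sample1 to Sample3 or within Sample4 to Sample6. For pairs between these sets it was 155.9 to 280.

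Of the 8 genes, 7 stood at levels from 26.1 to 1625 RPKM, and the last, Ass1, stood below 0.5 RPKM. Together the 8 genes took 0.401 to 0.536% of all reads counted. Arg1 was the highest, with Asl, Cps1 and Otc after it. Slc25a15, Slc25a13 and Nags followed, and Ass1 was last. RPKM is scaled to length and library size, which does not remove other differences between genes in how reads arise or are counted. The order is therefore one of measured RPKM, and the place of Ass1 in it is uncertain. The order of the medians was the same under all 9 settings tried. These rescaled whole columns or left out single ones. A rescaling keeps the order of the genes within each column, so the settings are a weak check of it.

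**Figure D1:**
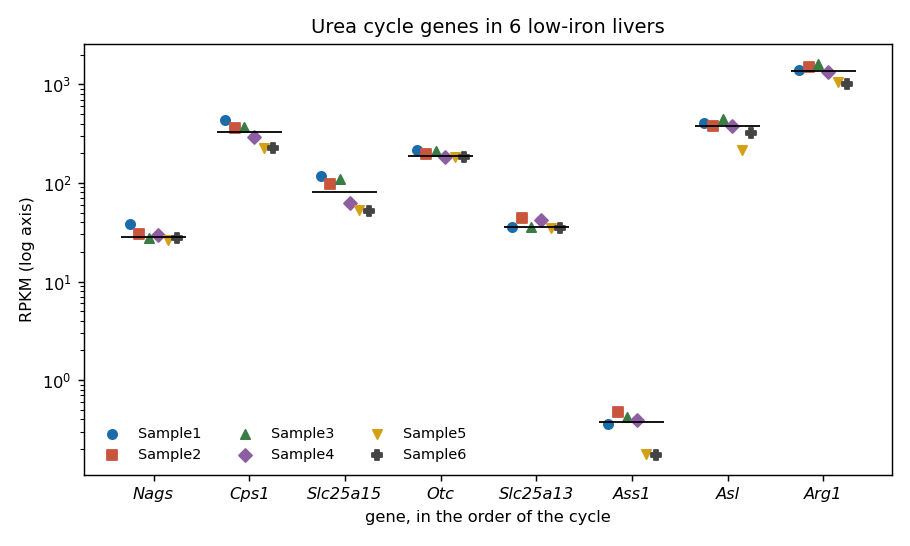
RPKM (log axis) of the 8 urea cycle genes, placed in the order in which they act, in the 6 columns (symbols); the black line is the gene's median. Arg1 lies at 1019 RPKM or more in all 6 columns and Ass1 below 0.5 RPKM, while the other 6 genes lie between 26.1 and 448.4 RPKM.

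The path begins with Nags, N-acetylglutamate synthase, whose product is the obligatory activator of Cps1. Nags (chromosome 11 of GRCm38, 102145513 to 102149477, forward strand, 7 exons) was at 38.7, 30.6, 27.6, 29.4, 26.1 and 27.9 RPKM in Sample1 to Sample6, with a median of 28.6. Sample1 was highest, and the other 5 columns lay between 26.1 and 30.6 RPKM. The distance of Sample1 from the rest depended on the scaling: with RPKM recomputed from the reads counted, Nags was at 35.6 in Sample1 and 32.7 in Sample4, with the lowest column at 25.2. Of the exon bases annotated for Nags, 15.6% also belong to Gm11586 on the opposite strand, and the sources used here do not state that reads were counted by strand, so reads of these genes cannot be told apart there. The reads behind Nags were 1702 to 2509 per column.

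Cps1 encodes carbamoyl phosphate synthetase, which fixes ammonia in the mitochondrial matrix and is one of the most abundant proteins of that compartment. Cps1 (chromosome 1, 67123026 to 67231259, forward strand, 38 exons and 1500 codons, the longest coding sequence of the 8) was at 434.3, 357.4, 371.1, 292.5, 227.1 and 227.5 RPKM, with a median of 324.9. Its highest column, Sample1, was 1.91 times its lowest, Sample5. Sample5 and Sample6 were nearly equal and lay below all of the other columns. Its RPKM was 8.17 to 13.5 times that of Nags within the same column.

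Slc25a15, the carrier that exchanges ornithine and citrulline across the inner mitochondrial membrane, varied most among the 7 genes measured with more than a few reads. On chromosome 8 (22375551 to 22398597, reverse strand, 7 exons), it was at 117.5, 97.8, 110.2, 63.0, 53.6 and 51.6 RPKM, a ratio of highest to lowest of 2.28. Its columns formed a higher set, Sample1 to Sample3, and a lower set, Sample4 to Sample6, that did not overlap. With 5702 to 12044 reads per column, counting error was small beside that spread. Slc25a2, a second ornithine carrier, was close to the detection limit, at no more than 0.0875 RPKM and with 3 columns at 0.

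Otc encodes ornithine transcarbamylase, which joins carbamoyl phosphate to ornithine to give citrulline. It was the steadiest of the 8 genes. On chromosome X (10252305 to 10321024, forward strand, 10 exons), Otc was at 213.4, 194.3, 209.2, 183.2, 182.5 and 183.2 RPKM, with a highest to lowest ratio of 1.17. Sample4 to Sample6 differed by less than 1 RPKM and lay below the other 3. That order of the columns depended on the scaling: with RPKM recomputed from the reads counted, without the factor by which the authors' library sizes differ from them, the values ran from 184.8 in Sample2 to 203.8 in Sample4.

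The Cps1 level was above that of Otc in all 6 columns, by 1.24 to 2.04 times, and that ratio was lowest in Sample5 and Sample6. The level of the carrier relative to Otc differed between columns too. Slc25a15 was at 0.551, 0.503 and 0.527 of the Otc level in Sample1 to Sample3, and at 0.344, 0.294 and 0.282 in Sample4 to Sample6. Relative to Cps1 it was steadier, with Cps1 at 3.37 to 4.64 times the level of Slc25a15. Ratios between genes within a column do not depend on the scaling of that column.

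Slc25a13 encodes citrin, the aspartate and glutamate carrier of liver, which delivers to the cytosol the aspartate that carries the second nitrogen of urea. At 36.1, 44.3, 36.0, 41.9, 35.0 and 34.6 RPKM, Slc25a13 (chromosome 6, 6041218 to 6217173, reverse strand, 18 exons) varied by 1.28 times. Sample2 and Sample4 were highest, and the other 4 columns lay within 1.5 RPKM of each other. Its paralog Slc25a12, the main form in muscle and brain, was at 5.28 to 6.9 RPKM, so that Slc25a13 exceeded it by 5.23 to 7.94 times in every column.

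Argininosuccinate synthase, encoded by Ass1, joins citrulline to aspartate. Its measured level did not resemble that of the other enzymes. Ass1 was at 0.361, 0.48, 0.426, 0.395, 0.179 and 0.173 RPKM, which correspond to 15, 21, 22, 26, 9 and 11 reads, in libraries that gave the neighbouring enzyme Asl 10250 to 23300 reads. It ranked 9970th of 23420 genes by median, where the other 7 ranked between 63rd and 1676th. The level of Asl was 794 to 1856 times that of Ass1. The exact Poisson 95% intervals of all 6 columns overlapped (0.0819 to 0.34 RPKM at the 9 reads of Sample5, 0.297 to 0.734 RPKM at the 21 reads of Sample2). These intervals cover counting error only, and whether the 2.77-fold spread of Ass1 exceeds that error was not tested.

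Ass1 lies on chromosome 2 (31470207 to 31520672, forward strand, 16 exons) and has a near-identical copy elsewhere. Gm5424, a processed pseudogene of 1 exon on chromosome 10 (62071123 to 62072362, forward strand), aligned over its whole length of 1240 bases with Ass1, with 1234 bases identical (99.5%), 6 mismatches and no gap. The copy covers all 1236 coding bases of Ass1 and 73.1% of its transcript of 1696 bases. The longest run without a mismatch has 398 bases.

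The stretch of 150 coding bases with the most mismatches is shown to let the genes be compared where they differ most. It holds 3 of the 6 mismatches. It spans coding bases 371 to 520 of Ass1 (GRCm38 chr2:31486496-31492338, forward strand, 3 exons) and lies at chr10:62071493-62071642 in Gm5424. Capitals mark the mismatched bases, which are T29C, T59C and A150T, with the Ass1 base first and positions counted from 1 at the first base shown.
Ass1: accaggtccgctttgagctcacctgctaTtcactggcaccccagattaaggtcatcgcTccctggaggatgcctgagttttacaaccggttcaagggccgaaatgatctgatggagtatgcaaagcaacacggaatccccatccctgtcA
Gm5424: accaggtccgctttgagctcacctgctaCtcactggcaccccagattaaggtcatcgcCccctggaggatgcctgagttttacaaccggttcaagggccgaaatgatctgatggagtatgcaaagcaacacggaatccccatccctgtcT

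**Figure D2:**
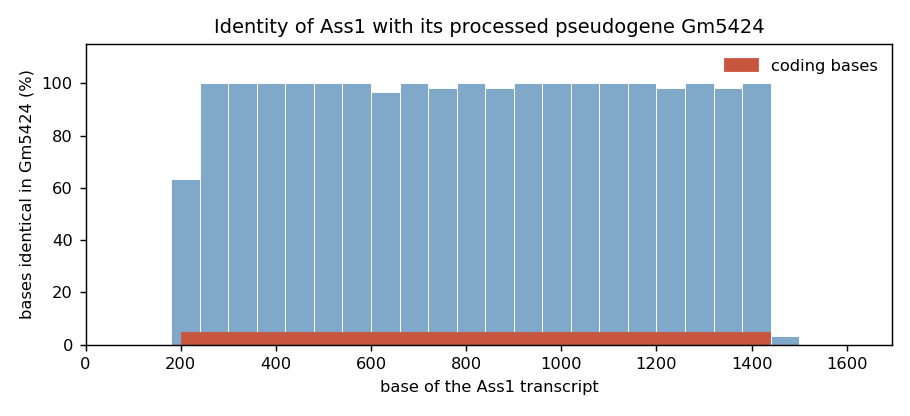
Percent of bases of the Ass1 transcript that are identical in Gm5424, in consecutive windows of 60 bases along the transcript (bars); the red strip marks the coding bases 203 to 1438. The identity is near 100% over the coding part, and the bases before 203 and after 1442 have no counterpart in the copy.

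Gm5424 was listed at 0 in all 6 columns. Its row stood directly after that of Ass1 in the table, at rows 11095 and 11094, and before Fubp3 of chromosome 2, although RefSeq and GENCODE both place Gm5424 on chromosome 10. Of the 18519 rows whose neighbours on both sides lie on 1 chromosome, 68 (0.367%) lie on another one. Counted at its default parameters, featureCounts leaves out reads that align to several places and reads that overlap 2 annotated genes. Of the 1622 windows of 75 bases in the Ass1 transcript, 761 (46.9%) also occurred without a mismatch in Gm5424, and 861 occurred in no other gene's transcript. The share was 55.3% at 50 bases and 29.3% at 150. Of the other 7 genes, 6 had no such window at 75 bases, and Nags had 19.0%, all of them in Gm11586 on the opposite strand. The part of the copy in the low value of Ass1 was not tested, and its level is given as uncertain.

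Asl encodes argininosuccinate lyase, which splits argininosuccinate into arginine and fumarate. Asl (chromosome 5, 130011258 to 130029247, reverse strand, 16 exons) was at 403.9, 381.5, 448.4, 377.6, 217.7 and 321.5 RPKM, with a median of 379.5. Sample5 was lowest, at 217.7 RPKM, and the other 5 columns lay between 321.5 and 448.4. Without Sample5 the ratio of highest to lowest was 1.39 in place of 2.06. Fh1, the fumarase that takes up the fumarate so released, ranged from 119.2 to 254.5 RPKM.

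Arginase, encoded by Arg1, closes the cycle by splitting arginine into urea and ornithine. Arg1 (chromosome 10, 24915221 to 24927484, reverse strand, 8 exons) was at 1394, 1506, 1625, 1332, 1059 and 1019 RPKM, which put its median 63rd of all 23420 genes. Sample5 and Sample6 were again the lowest columns, below the other 4. The mitochondrial isoform Arg2 was at 0.0917 to 1.72 RPKM. Arg1 stood at 812 or more times the Arg2 level in each column.

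Along the order of levels, 5 of the 7 neighbouring pairs had ranges that did not overlap. The pairs that did overlap were Asl and Cps1, with Asl higher in 4 of 6 columns (0.93 to 1.41 times Cps1), and Slc25a13 and Nags, with Slc25a13 higher in 5 of 6 (0.933 to 1.45 times Nags). Each of these pairs stood within the spread of its members. By contrast, Arg1 was 3.17 to 4.86 times Asl, and Otc was 1.82 to 3.55 times Slc25a15. The carrier Slc25a15 was in turn 1.49 to 3.26 times Slc25a13.

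The spread of the cycle genes was set beside that of all 3178 genes with a median of at least 10 RPKM and no column at 0, whose median ratio of highest to lowest was 1.39. Of the 7 members in that range of levels, 5 varied more than this median, a value that splits those genes evenly by its definition. Slc25a15 had a larger ratio than 90.5% of the genes, Asl than 87.9% and Cps1 than 84.7%. The values for Arg1 and Nags were 71.7% and 61.5%. Slc25a13 and Otc varied less than the median gene, with larger ratios than 30.9% and 9.09% of the genes. Steps that act in sequence in 1 compartment thus differed in spread, with Cps1 and Slc25a15 at the wide end and Otc at the narrow end.

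**Figure D3:**
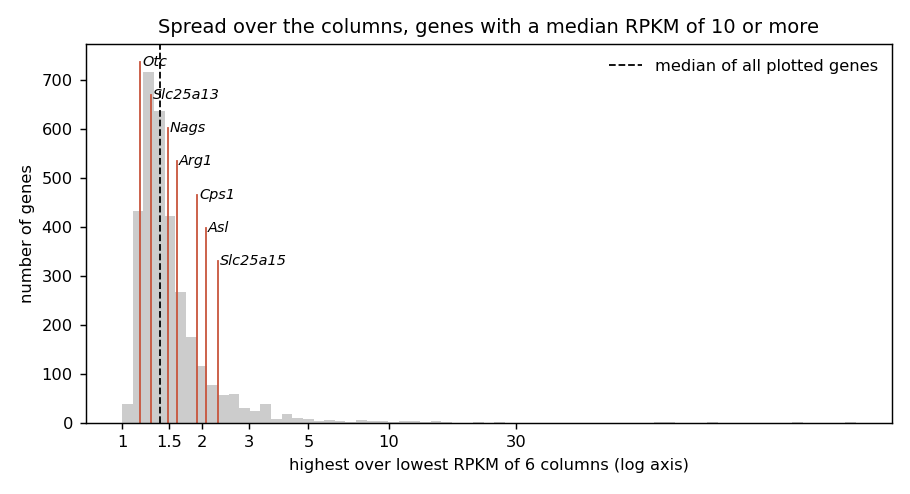
Number of genes (grey) by the ratio of highest to lowest RPKM over the 6 columns (log axis), for 3178 genes with a median of 10 RPKM or more; red lines mark the 7 urea cycle genes in that range. Otc (1.17) and Slc25a13 (1.28) lie left of the dashed median of 1.39, and the other 5, up to Slc25a15 at 2.28, lie right of it.

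The genes tended to be high or low in the same columns. Sample2 was above the gene's own median for all 8 genes, Sample1 for 7 and Sample3 for 6. Sample4 was above it for 3 genes, and Sample5 and Sample6 for 0. As log2(RPKM + 1), the departure from the gene's median was averaged over the 8 genes. The mean was 0.21, 0.14, 0.17, -0.03, -0.33 and -0.27 in Sample1 to Sample6. This pattern rested in part on the scaling of the columns, because the library sizes behind the deposited RPKM were 0.916 to 0.951 times the reads counted in Sample1 to Sample3 and 1.06 to 1.11 times in Sample4 to Sample6. From the reads counted alone, a scaling chosen after seeing the data, 5, 5, 5, 6, 2 and 1 genes were above their median. With the same RPKM sum in every column the numbers were 5, 6, 5, 6, 2 and 0. With median-of-ratios size factors they were 6, 8, 7, 3, 0 and 0. Those factors shifted the median of the background genes by no more than 0.01 (log2) from the deposited values. Sample5 and Sample6 stayed the lowest columns for Cps1, Slc25a15, Arg1 and Ass1 under each of the 3 other scalings. In bulk liver, fewer hepatocytes and less RNA of a gene per hepatocyte cannot be told apart.

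**Figure D4:**
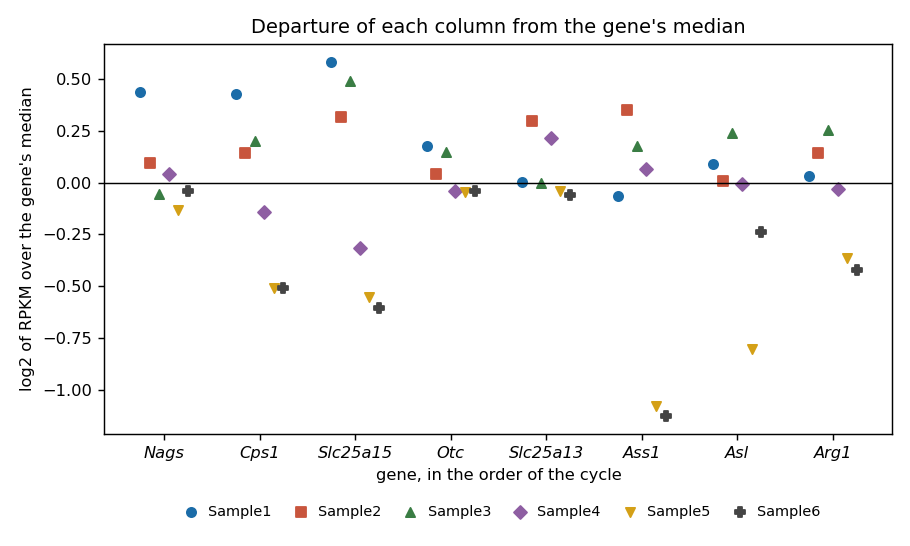
Log2 ratio of each column's RPKM to the gene's median over the 6 columns, for the 8 genes in the order in which they act. Sample5 and Sample6 lie below 0 for every gene, furthest for Ass1, which rests on 9 to 26 reads, while the points of Otc lie within 0.18 of 0.

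As a measure of likeness, Pearson's r of log2(RPKM + 1) over the 6 columns was taken between members, as a description only, since the 6 points share their libraries and scaling. Cps1 and Slc25a15 were each other's closest match (r = 0.975, Spearman's rho = 0.943), and Slc25a15 was also closest to Otc (r = 0.941). Asl was closest to Arg1 (r = 0.819) and Nags to Cps1 (r = 0.749). Arg1 and Ass1 were each other's closest match (r = 0.952), and Slc25a13 was closest to Ass1 (r = 0.735). The matches with Ass1 rest on its 9 to 26 reads per column. Among 3171 other genes with a median of at least 10 RPKM, the 5 most like the mean pattern of the cycle were Gadd45g, Epas1, Glyr1, Pim3 and Ccl6, with r from 0.988 to 0.997. The ranking over so many candidates and 6 columns is a description and was not tested. Gadd45g, a stress-response gene, went from 87.0 RPKM in Sample1 to 9.92 in Sample5. Its range was far wider than that of any cycle gene, with a ratio of highest to lowest of 8.76.

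The genes that feed and drain the cycle were taken from 7 lists, which together hold 60 genes, all present in the table. Of these, 53 had a median of at least 1 RPKM, and 40 of at least 10. Among those 40, 28 had a ratio of highest to lowest above the background median of 1.39, which by its definition splits the background genes evenly. Of the 11 genes that supply nitrogen, 9 reached a median of 10 RPKM and 7 of those varied more than the background median. Glud1, glutamate dehydrogenase, which releases ammonia from glutamate beside Cps1, was at 80.9 to 127.7 RPKM. Liver glutaminase, Gls2, was at 20.4 to 52.9 RPKM. The cytosolic aspartate aminotransferase Got1 was the most variable of the list among the genes above 10 RPKM, at 496.6, 230.5, 317.9, 196.3, 111.4 and 124.0 RPKM. Its mitochondrial counterpart Got2, which makes the aspartate that citrin exports, stayed between 73.0 and 88.6 RPKM. Got1 was thus 5.61 times Got2 in Sample1 and 1.3 times in Sample5.

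Among the 11 genes that use ornithine and arginine, 5 had a median of 10 RPKM or more and 3 of those were more variable than the background. Oat, which turns ornithine into glutamate in pericentral cells, was at 232.8 to 405.4 RPKM. Agmat, annotated as agmatinase, had one of the narrowest ranges, 95.5 to 101 RPKM. The polyamine gene Odc1 was low, with a median of 2.48 RPKM, as was Gatm at 3.02. In the malate-aspartate shuttle and fumarate list, 6 of 7 genes reached 10 RPKM. The malate dehydrogenases were steady, with Mdh1 at 349.7 to 378.7 RPKM and Mdh2 at 248.7 to 259.9, whereas Got1 and Fh1 varied by more than 2 times.

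Of the 8 transporters of amino acids, ammonia and urea, 5 had a median of 10 RPKM or more. The glutamine carrier Slc38a3 was at 137.8 to 234.3 RPKM, and Slc38a2 varied 5-fold, from 12.1 to 60.5. Aqp9, a hepatocyte channel permeable to glycerol and urea, was at 37.5 to 51.3 RPKM, while the urea transporter Slc14a1 was near the detection limit with 2 columns at 0. Of the 11 regulators, 5 reached 10 RPKM and 2 of them varied more than the background. Cebpb, a transcription factor that responds to glucagon and inflammation, ranged from 2.55 to 42.6 RPKM, 16.7-fold. The glucagon receptor Gcgr stayed within 77.6 to 90.1 RPKM, and Hdac3 itself was at 11.9 to 14.8 RPKM.

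The cycle shares the periportal zone with amino acid breakdown. In that list, 9 of 10 genes had a median of 10 RPKM or more and 8 of those exceeded the background spread, led by Sds, serine dehydratase, at 119.4 to 1326 RPKM and Tat, tyrosine aminotransferase, at 438.0 to 2447. Both ranges were wider than that of any urea cycle gene (11.1- and 5.59-fold). The gluconeogenic gene Pck1 was narrower, at 573.6 to 707.9 RPKM. In the pericentral list, 5 of 8 genes had a median of at least 10 RPKM and all 5 varied more than the background median, but by no more than 1.74 times. Among them, Glul, the glutamine synthetase that takes up the ammonia the cycle leaves, was at 73.1 to 108.5 RPKM. Counts and ranges in these lists are descriptions of 6 livers of mixed treatment, without a test.

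**Figure D5:**
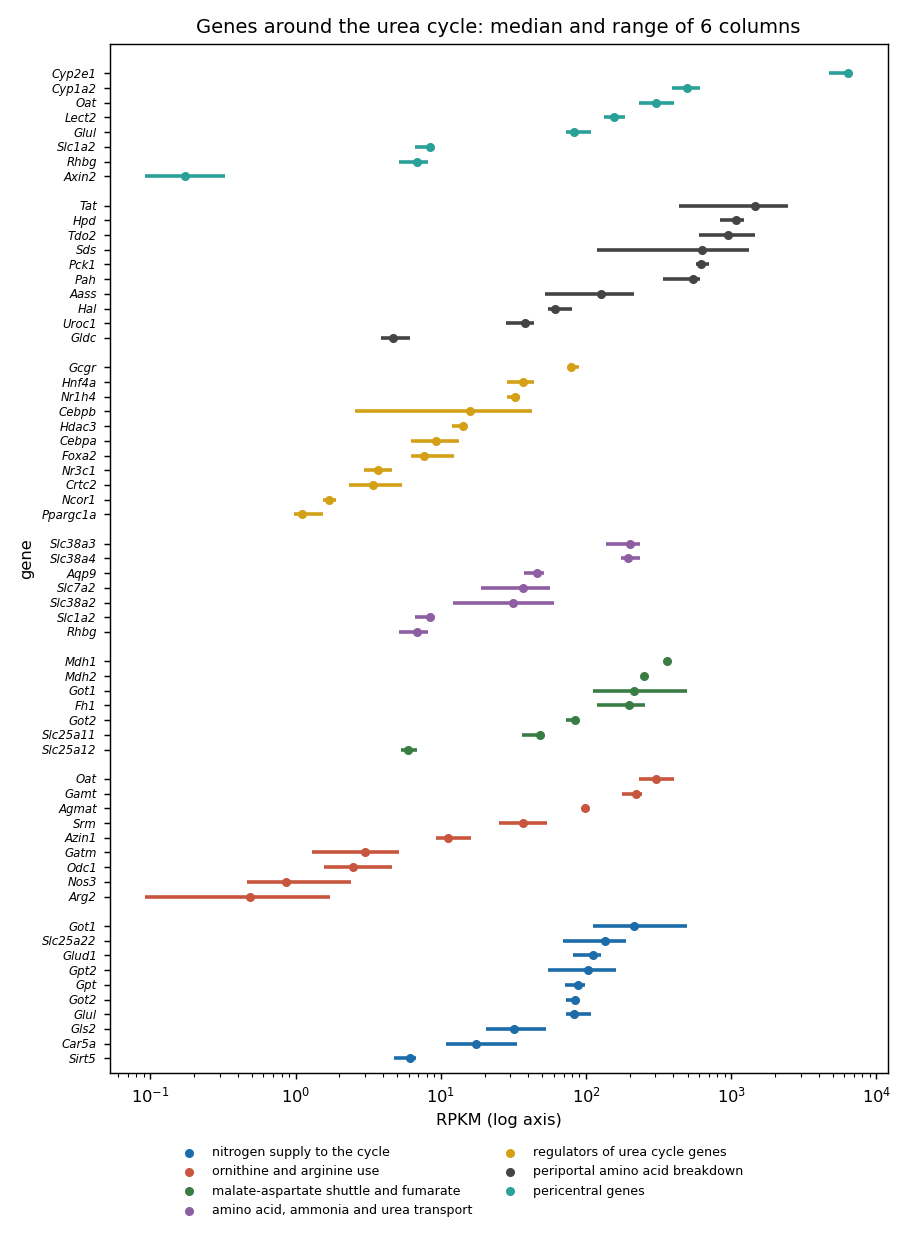
Median (point) and range (line) of RPKM over the 6 columns, on a log axis, for genes of the 7 lists around the urea cycle; a gene in 2 lists is drawn in both, and Nos2, Slc25a2 and Slc14a1, which have columns at 0, are left out. Mdh1, Mdh2 and Agmat show lines too short to see, while Arg2, Cebpb and Sds span more than 10-fold.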

How the data were processed

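Liver RNA of 6 mice was converted to cDNA with Smartseq2 reagents and made into libraries with a Nextera kit. Per the methods and the submitters' processing notes, the authors checked reads with FastQC 0.11.4, used STAR 2.4.2a for alignment to GRCm38 (mm10) and UCSC transcripts, and took gene counts from featureCounts (Subread 1.5.0-p2, default settings). The authors then used edgeR to turn these counts into the deposited RPKM. The deposited table has 6 value columns, all used, and 0 others. No column was assigned to a treatment, so no groups were compared. The only test run was Dixon's, for single columns far from the rest.

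The value of 1 read was found for each column from 1670 single-exon genes. The shortest gene length that made all columns whole within 0.0001 reads was then taken. This gave whole reads for all 16028 genes above 0, and 7392 genes were at 0 throughout. The procedure was tested on simulated data. Depth was 27654937 to 36850744 reads per column, and a median of at least 10 RPKM defined the background genes. PCR duplicates cannot be recognised in such counts, so intervals cover counting error only.

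Positions and transcripts came from GENCODE M21 on GRCm38, and neighbouring rows were placed with RefSeq. Computation used Python 3.11.15, pandas 2.3.3, NumPy 2.4.6, SciPy 1.17.1, Biopython 1.88 and Matplotlib 3.10.9. The genes named were the 8 members, members of 7 related lists, markers of 8 cell types or tissues, the other member most like each one, and the 5 genes most like the cycle's mean pattern. The value of 1 gene of these lists is not reported here, and it is not drawn. Gene lists and members were chosen with earlier results of these data known. Alternatives were other scalings, pseudocounts and filters, and leaving out each column.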

Additional observations from a re-analysis of the deposited data

Results flagged for a closer look

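Of 48 genes tested for a column that lies far from the rest, 1 was flagged, and chance flags about 1 in 20. It was Nags in Sample1, at 38.7 RPKM, where the other 5 columns ranged from 26.1 to 30.6. The gap to the nearest column was 0.645 of the whole range, above the critical value of Dixon's test at the 95% level for 6 columns. It was 0.629 with median-of-ratios size factors, but 0.322 with the same RPKM sum in every column and 0.28 from the reads counted, both below that critical value, so the distance of Sample1 depended on the scaling. Without Sample1 the ratio of highest to lowest fell from 1.48 to 1.17. Of the other 7 genes, Cps1, Slc25a15 and Otc were also highest in Sample1 (434.3, 117.5 and 213.4 RPKM). The share of Nags that belongs to the overlapping Gm11586 was not tested.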

How the results depend on the processing

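The order of the 8 levels was the same under every setting tried, and the number of neighbouring pairs with separate ranges was 5 or 6. For the order this is a weak check, because a rescaling cannot change it within a column. The number of members above the background spread was 6 with Ass1 counted and ranged from 4 to 6, and the number of related genes with a median of 1 RPKM or more was 53 or 54. When candidates with a median of only 1 RPKM were admitted, 3 of the 5 genes most like the mean pattern were shared with the list reported. Leaving out single columns moved the ratio of highest to lowest of Asl to 1.39 without Sample5 and of Nags to 1.17 without Sample1, and giving all columns the same RPKM sum moved that of Slc25a13 from 1.28 to 1.43. Scaling to the reads counted, added after seeing the data, shifted the median of the background genes by -0.12, -0.07, -0.13, 0.15, 0.11 and 0.08 (log2) in Sample1 to Sample6, so departures of that size in a single gene, such as those of Otc, depend on the scaling. No paired analysis was possible because no column could be tied to a replicate number.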

Other observations

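For 1 member, Slc25a15, the widest gap on the log scale set 3 columns apart from 3. Slc25a15 stood at 117.5, 97.8 and 110.2 RPKM in Sample1, Sample2 and Sample3, and at 63.0, 53.6 and 51.6 RPKM in Sample4, Sample5 and Sample6, a gap of 1.55-fold. From the reads counted alone the values were 108.2, 93.0 and 100.9 against 70.1, 57.6 and 54.5, and still did not overlap. The split of these columns was not particular to Slc25a15. In the deposited RPKM, Cps1, Asl, Arg1 and Otc were also higher in each of Sample1 to Sample3 than in any of Sample4 to Sample6. From the reads counted alone Cps1 kept this, at 400.0, 340.0 and 339.8 RPKM against 325.5, 244.3 and 240.4, while Asl, Arg1 and Otc did not. The chi-square per degree of freedom between columns was 41 to 65.1 within these sets and 155.9 to 280 between them. For Cps1, Arg1 and Ass1 the widest gap lay elsewhere, with Sample5 and Sample6 below the other 4 columns (1.29-, 1.26- and 2.02-fold). For Asl it set Sample5 apart from the other 5. No key was available to say what, if anything, these sets of columns share.

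Of the 68 rows of the table that sit between genes of another chromosome, as Gm5424 does, 55 (80.9%) were at 0 in all columns, against 31.6% of all rows. The alpha-globin genes Hba-a1 and Hba-a2 and the beta-globin gene Hbb-b1 were also listed at 0 throughout. Another beta-globin gene, listed as Beta-s, was at 216.2 to 632.9 RPKM. Hba-a1 and Hba-a2 share 62.2% of the windows of 75 bases in the Hba-a1 transcript. Whether Ass1, Gm5424 and the globin genes at 0 are low for a shared reason was not tested, and the reads themselves were not analysed here.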
